A study of Homo sapiens with 18 samples.

Results

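KRT5, KRT14, KRT15, KRT17, KRT6A, KRT7, KRT8, KRT18 and KRT19 encode the keratins by which basal and luminal prostate epithelium are usually told apart, and TP63 encodes the basal transcription factor p63. These 10 genes were selected by name from the 57773 genes of the count table, and each was found once. They held 0.451% of all counts. All 10 had at least 10 counts in at least 3 libraries, the limit for testing, which left 5816 genes.

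RNA-seq was performed on RWPE1 cells, an established line from benign human prostate epithelium, which had been transduced with lentivirus and selected with blasticidin for 1 of 3 constructs that join a DNA-binding domain, which recognises androgen response elements (AREs), to the tamoxifen-responsive ERT2 domain and a triple FLAG tag. The neutral construct carried only the tag, the repressive construct added KRAB and the activating construct added VP64. Each line was given ethanol vehicle or tamoxifen for 48 h, at a dose that the labels put at 1.5 uM in the treatment field and at 1.25 uM in the protocol field, and each of the 6 groups had 3 libraries labelled as biological replicates. All 18 libraries therefore shared the parental line and a construct with this DNA-binding domain, and no library came from cells without one. Nothing in the labels says that replicates came from separately transduced cultures, so p-values measure the spread between these libraries. The comparisons ask what tamoxifen did within each line, whether that effect differed between effectors, and how the lines differed before induction.

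Keratins are the intermediate filament proteins of epithelia and assemble as pairs of a type II keratin (KRT5, KRT6A, KRT7, KRT8) with a type I keratin (KRT14, KRT15, KRT17, KRT18, KRT19). Basal cells of the prostate carry KRT5 with KRT14 and express p63, which maintains basal identity, whereas secretory luminal cells carry KRT8 with KRT18. KRT6A and KRT17 are known as keratins of stressed or activated epithelium, KRT15 as a keratin of basal progenitors, and KRT7 and KRT19 as keratins of simple and intermediate epithelial cells.

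Total counts were between 675609 and 792282 per library (median 755562). A gene at 0 counts in a library may have had up to 3.79 to 4.44 CPM (library counts scaled to a common total) at this depth, by a limit of 3 counts that covers counting error only. Genes whose exons overlap an exon on the opposite strand made up 23% of the genes matched to the annotation and held 89% of their counts. MT-ND6, the protein gene of the mitochondrial light strand, held 71.7% to 79.6% of the counts of the 13 mitochondrial protein genes. The libraries were made with a stranded kit, and the strand setting used for counting is not given in the sources used here. Reads may have been counted largely on the strand opposite their gene, which was not tested. Reads of a gene and of its opposite-strand partner therefore cannot be told apart in what follows. A gene with no exon opposite it may show only part of its reads in its own row. ZNF10, the gene from which KRAB derives, had 40 counts summed over the repressive libraries and 0 over the neutral and over the activating libraries.

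Since the constructs bind AREs, the available promoter sequences were searched on both strands for the ARE repeat unit AGAACA and for 2 such units in inverted order with 3 bases between them. The AP-1 motif was searched as TGANTCA, the GC box as GGGCGG and the core promoter box as TATAAA. The RefSeq table (GRCh38.p14) held promoters for 3 of the 10 genes, the basal keratin KRT5, the luminal keratin KRT8 and TP63. Each window precedes a single start of its gene, and promoters at other starts were not searched. Whether these starts are the ones most used in these cells was not tested. The 250 bases before the start are shown 5′ to 3′. They lie at chr12:52520395-52520644 on the minus strand, chr12:52926470-52926719 on the minus strand and chr3:189631139-189631388 on the plus strand, and capitals mark a match to a searched motif.
KRT5: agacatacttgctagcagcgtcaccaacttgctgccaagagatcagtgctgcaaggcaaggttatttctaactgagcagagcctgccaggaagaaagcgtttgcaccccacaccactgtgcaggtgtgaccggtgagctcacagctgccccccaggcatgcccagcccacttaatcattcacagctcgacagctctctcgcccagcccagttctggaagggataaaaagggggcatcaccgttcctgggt
KRT8: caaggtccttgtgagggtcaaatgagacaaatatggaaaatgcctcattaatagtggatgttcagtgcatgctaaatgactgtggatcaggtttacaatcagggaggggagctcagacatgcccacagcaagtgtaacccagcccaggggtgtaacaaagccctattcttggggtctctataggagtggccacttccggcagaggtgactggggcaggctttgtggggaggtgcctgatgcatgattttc
TP63: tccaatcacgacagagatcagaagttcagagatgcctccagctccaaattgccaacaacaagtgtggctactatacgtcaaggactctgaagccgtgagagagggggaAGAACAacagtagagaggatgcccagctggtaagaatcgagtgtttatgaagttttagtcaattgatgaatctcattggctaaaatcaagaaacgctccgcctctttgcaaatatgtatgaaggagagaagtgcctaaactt

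The only match was a single ARE unit on the plus strand of the TP63 window, 142 to 137 bases before the start used for that window. Promoters at other starts of TP63 were not searched, and whether basal p63 transcripts begin at this start was not tested. Of 35116 RefSeq promoters of this kind, 12.4% held that unit. The inverted pair was found in 0.00285% of them, TGANTCA in 6.57%, GGGCGG in 42.6% and TATAAA in 10.7%. These matches describe letters in the window and not binding.

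The genes lie in keratin clusters on chromosomes 12 and 17 and, for TP63, on chromosome 3 (GENCODE exons, GRCh37). KRT5 spans chr12:52908359-52914314, KRT6A chr12:52880960-52887041, KRT8 chr12:53290971-53343738, KRT14 chr17:39738531-39743147, KRT15 chr17:39669997-39678781, KRT17 chr17:39775694-39781094 and KRT19 chr17:39679869-39684560, all on the minus strand. KRT7 (chr12:52626304-52645970), KRT18 (chr12:53342655-53346690) and TP63 (chr3:189349178-189615065) lie on the plus strand. KRT5, KRT14, KRT15, KRT6A, KRT19 and TP63 have no exonic base opposite another exon. KRT8 and KRT18 share 525 exonic bases on opposite strands, KRT7 shares 282 with the antisense gene KRT7-AS (chr12:52638832-52641232, named RP3-416H24.1 in the table), and KRT17 shares 307 with ENSG00000289252, a long noncoding RNA gene not used here.

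**Figure D1:**
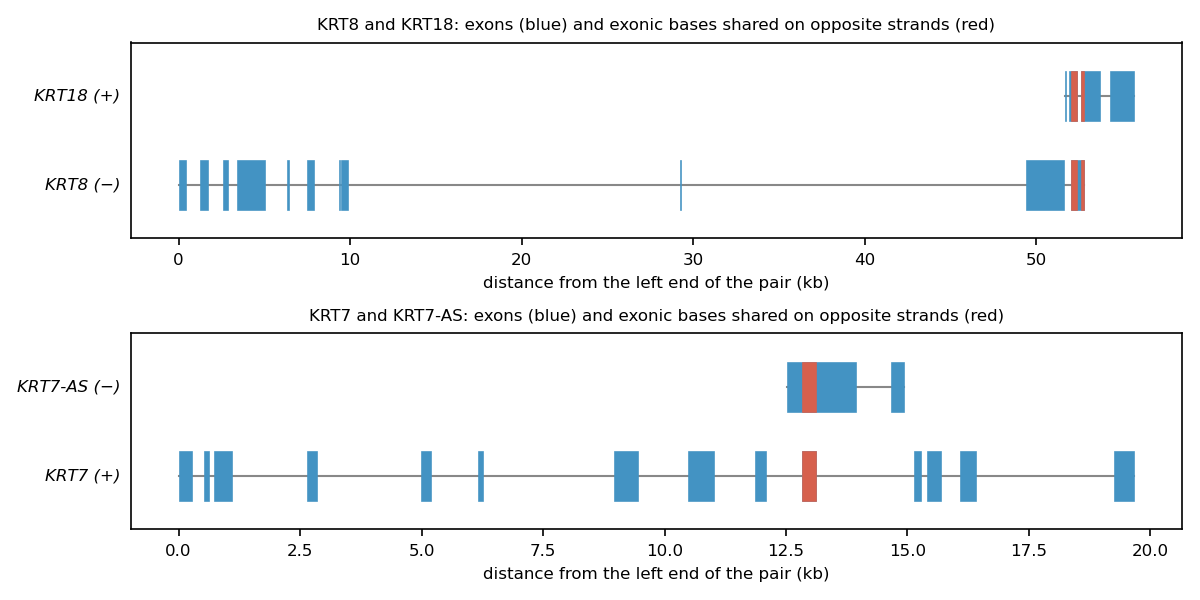
Exon maps of KRT8 with KRT18 (top) and of KRT7 with KRT7-AS (bottom), drawn to scale as distance in kb from the left end of each pair; blue boxes are exons, red boxes are exonic bases present on both strands, and the sign gives the strand. The shared bases, 525 in the upper pair and 282 in the lower, sit at the right-hand end of KRT8 and inside KRT7.

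KRT14, KRT17 and KRT5 had the most counts per length of the set in their own rows. Levels were taken as normalized counts (scaled between libraries by DESeq2 size factors) per kilobase of exon, mean ± SD over the 18 libraries. KRT14 had 273 ± 50.8, KRT17 247 ± 59.7 and KRT5 223 ± 34.5, so the SDs of these 3 overlapped. KRT8 followed at 103 ± 18.1. KRT7 (29.2 ± 4.93) and KRT6A (26.1 ± 8.95) lay lower and did not differ beyond their SDs. KRT19 had 8.43 ± 3.80, KRT18 7.70 ± 2.29 and KRT15 6.90 ± 3.34, again within each other's spread, and TP63 was lowest at 1.66 ± 0.829. The order of all 10 genes was the same with CPM per kilobase. It ranks the counts in each gene's own row and is not a ranking of transcript levels. Reads of KRT7 and KRT18 may lie in rows of the opposite strand. The KRT8 row may hold reads of KRT18, and the KRT17 row reads of ENSG00000289252. KRT5, KRT14, KRT15, KRT6A, KRT19 and TP63, which have no exon opposite them, may show only part of their reads.

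The labelled cell type was checked against its markers at these levels. The basal markers KRT5, KRT14 and KRT15 and the luminal marker KRT8 had counts in every library, as did TP63 at 3.94 to 24.1 normalized counts. The KRT8 counts may include reads of KRT18. Of 15 prostate luminal genes chosen for comparison, 14 were in the table and KLK2, KLK3, SLC45A3 and CD38 had 0 counts in all 18 libraries. Of 10 markers of neuroendocrine, mesenchymal, immune and endothelial cells, 9 were in the table and COL1A2, DCN and PTPRC were at 0. PECAM1, the only endothelial marker, was not in the table, so endothelial cells were not checked. The summed counts of the 9 markers in the table ranged from 87 to 221 per library. In the repressive line they were 164 to 221 with vehicle and 188, 105 and 159 with tamoxifen. Most of these counts came from VIM, whose row overlaps VIM-AS1 on the opposite strand.

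**Figure D2:**
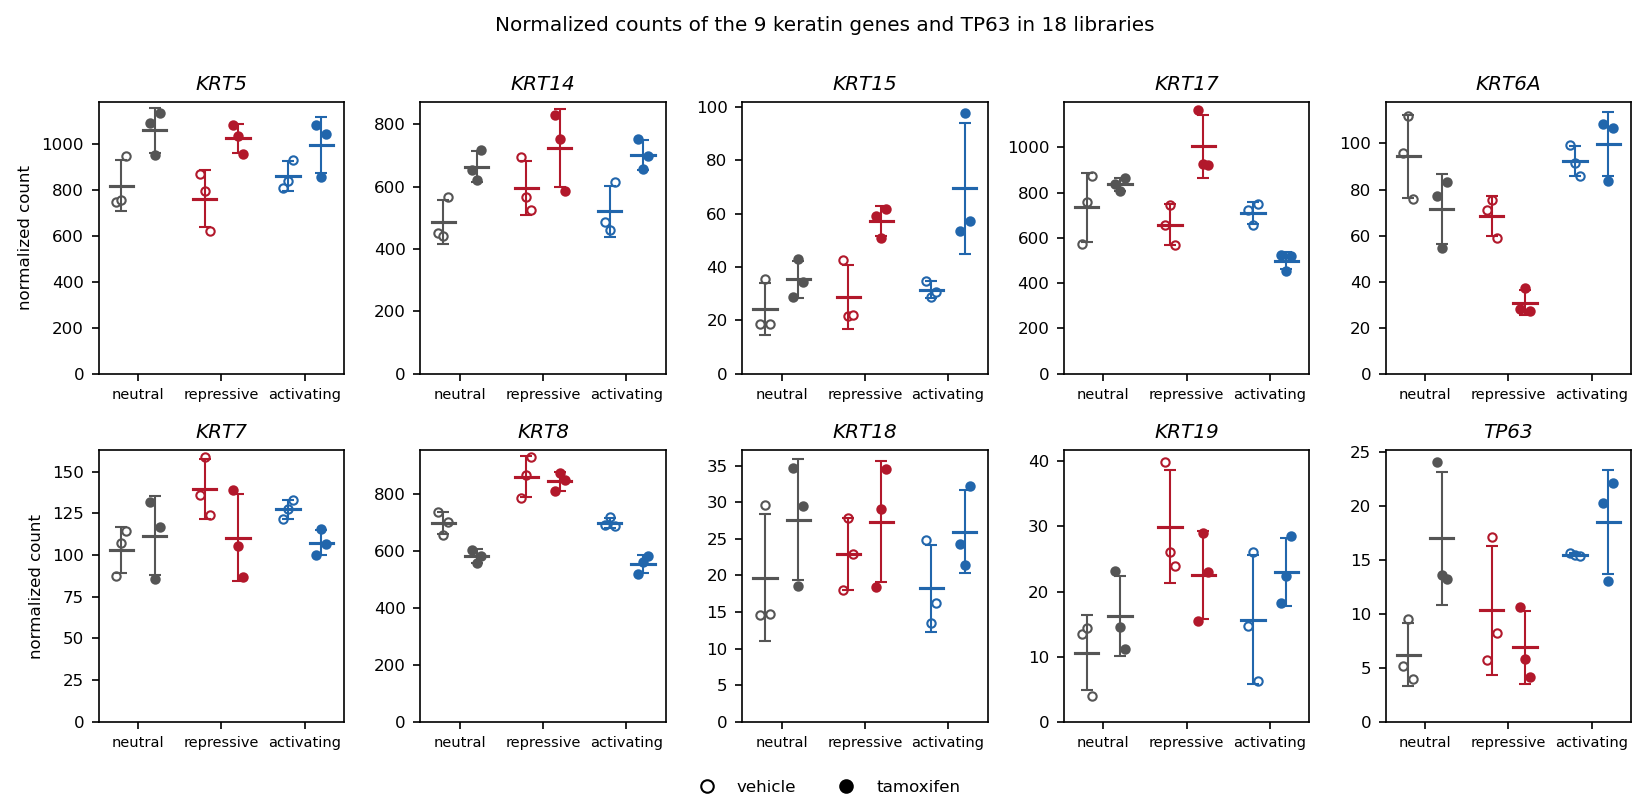
Normalized counts of the 10 genes (y axis, linear from 0, scaled per panel) in the 3 lines (x axis), open points for vehicle and filled points for tamoxifen; each point is 1 of 18 libraries, the thick bar is the group mean and the whiskers are 1 SD (n = 3). KRT17 with tamoxifen lies at 921 to 1164 in the repressive line and at 456 to 524 in the activating line, and KRT6A with tamoxifen in the repressive line lies at 27.2 to 37.1, below every other library.

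In the neutral line, tamoxifen was accompanied by more counts of the basal pair KRT5 and KRT14. KRT5 had 751, 759 and 948 normalized counts with vehicle (819 ± 111, SD, n = 3) and 1094, 953 and 1138 with tamoxifen (1061 ± 96.5). Every tamoxifen library was above every vehicle library, although the highest vehicle library and the lowest tamoxifen library were close. KRT5 rose by 0.37 on the log2 scale (SE 0.11), with an adjusted p of 0.0356.

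KRT14, the partner of KRT5, had 453, 441 and 568 normalized counts with vehicle and 655, 621 and 718 with tamoxifen in the neutral line. The groups did not overlap, and KRT14 rose by 0.45 on the log2 scale (SE 0.13, adjusted p = 0.0248). These were 2 of the 10 genes, both higher, where 0.774% of all tested genes were called. Only 1193 of the 5816 tested genes, and 6 of the 10, got an adjusted p in this comparison. Both calls were lost with edgeR (adjusted p = 0.18 for KRT5 and 0.134 for KRT14), and when 1 library was left out. The KRT5 call was lost without vehicle replicate 1 or 2 or tamoxifen replicate 1 or 3 (adjusted p up to 0.274), and the KRT14 call without vehicle replicate 1 or 2 or any tamoxifen replicate (adjusted p up to 0.244).

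KRT8 went the other way in the neutral line. It had 736, 657 and 702 normalized counts with vehicle and 604, 557 and 583 with tamoxifen. The 2 groups did not overlap, but the log2 fold change of -0.26 (SE 0.085) missed the threshold at an adjusted p of 0.0501. With total-count scaling it was 0.0298. KRT17 (log2 fold change 0.19, adjusted p = 0.515), KRT6A (-0.40, adjusted p = 0.401) and KRT7 (0.11, adjusted p = 0.868) did not pass the test either.

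TP63 counts were few. In the neutral line it had 5.2, 9.57 and 3.94 normalized counts with vehicle and 24.1, 13.6 and 13.2 with tamoxifen. The tamoxifen libraries were all higher, by 1.44 on the log2 scale (SE 0.58, unadjusted p = 0.0132), but independent filtering, which leaves low-count genes without an adjusted p, gave it none. In this comparison KRT15, KRT18 and KRT19 had no adjusted p either, with log2 fold changes of 0.54, 0.48 and 0.62 and intervals that included 0.

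In the repressive line KRT5, KRT15 and KRT17 rose and KRT6A fell, so that the stress keratins KRT17 and KRT6A went in opposite directions. KRT17 had 658, 747 and 567 normalized counts with vehicle (657 ± 90.3) and 1164, 927 and 921 with tamoxifen (1004 ± 138). All tamoxifen libraries were above all vehicle libraries, and the fold change was 1.53 (log2 0.61, SE 0.12, adjusted p = 1.99e-05).

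KRT6A had 71.2, 75.5 and 58.8 normalized counts with vehicle and 28.1, 37.1 and 27.2 with tamoxifen in the repressive line. The groups were well separated, and KRT6A fell by 1.16 on the log2 scale (SE 0.26, adjusted p = 1.75e-04), to 0.448 of its vehicle level. KRT6A shares near-identical sequence with KRT6B and KRT6C, which had 94 counts together against 1425 for KRT6A over all libraries, and the calls of KRT6A held when these rows were summed. KRT6A, KRT14 and KRT17 had counts that were not whole in all 18 libraries, and KRT5 in 17, as arises when reads are divided between similar transcripts.

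KRT5 had 870, 798 and 625 normalized counts with vehicle and 1085, 1038 and 957 with tamoxifen, and rose by 0.43 on the log2 scale (SE 0.11, adjusted p = 0.00305) with no overlap of the groups. KRT15 had 42.7, 21.6 and 22 normalized counts with vehicle and 59.2, 51.1 and 61.8 with tamoxifen. The vehicle group held 1 library well above the other two, and KRT15 rose by 1.00 (SE 0.34, adjusted p = 0.0272).

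The 4 called genes stand against 9.65% of all tested genes called in this line. Under total-count scaling the median log2 fold change of all genes moved by -0.132, and KRT5 (0.29, adjusted p = 0.1) and KRT15 (0.87, adjusted p = 0.074) were then not called, whereas KRT17 (0.48, adjusted p = 0.0033) and KRT6A (-1.29, adjusted p = 2.03e-05) were. KRT5 also lost its call when vehicle replicate 3 was left out (adjusted p = 0.073), and KRT15 when vehicle replicate 2 or 3 or tamoxifen replicate 1 or 3 was (adjusted p up to 0.167).

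KRT14 had 694, 569 and 526 normalized counts with vehicle and 832, 754 and 586 with tamoxifen in the repressive line. The groups overlapped and the log2 fold change of 0.28 (adjusted p = 0.165) did not pass, but it was called when vehicle replicate 1 (0.41, adjusted p = 0.0371) or tamoxifen replicate 3 (0.42, adjusted p = 0.0177) was left out. KRT8 had a log2 fold change of -0.03 with a 95% interval of -0.19 to 0.13. KRT7 (-0.33, adjusted p = 0.314), KRT18 (0.25, adjusted p = 0.81), KRT19 (-0.42, adjusted p = 0.687) and TP63 (-0.58, adjusted p = 0.655) did not pass, and TP63 had 5.7, 17.1 and 8.27 normalized counts with vehicle against 10.7, 5.8 and 4.19 with tamoxifen, which overlapped.

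In the activating line KRT14 rose while KRT17 and KRT8 fell. KRT17 had 725, 658 and 748 normalized counts with vehicle (710 ± 46.9) and 524, 456 and 520 with tamoxifen (499.8 ± 38.1). No library of either group reached the other, and KRT17 fell to 0.704 of its vehicle level (log2 fold change -0.51, SE 0.12, adjusted p = 0.00135).

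KRT8 had 689, 719 and 688 normalized counts with vehicle and 519.9, 562 and 582 with tamoxifen in the activating line. The groups were apart, and KRT8 fell by 0.33 on the log2 scale (SE 0.085, adjusted p = 0.00226). Leaving out tamoxifen replicate 1 gave an adjusted p of 0.0525.

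KRT14 had 489, 461 and 615 normalized counts with vehicle and 754, 658 and 698 with tamoxifen. The groups did not overlap, and KRT14 rose by 0.43 (SE 0.13, adjusted p = 0.0155), with adjusted p = 0.051 in edgeR and up to 0.181 without vehicle replicate 1 or 2 or tamoxifen replicate 1 or 3. Thus 3 of 10 genes were called, 1 higher and 2 lower, where 2.8% of all tested genes were called. Only 1644 of the 5816 tested genes, and 6 of the 10, got an adjusted p in this comparison.

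KRT15 gave the largest log2 fold change of the 10 in the activating line. It had 35, 29 and 30.8 normalized counts with vehicle and 53.7, 97.7 and 57.1 with tamoxifen. Replicate 2 of the tamoxifen group stood above the others, and the groups did not overlap. The log2 fold change was 1.14 (SE 0.33, unadjusted p = 5.12e-04), with no adjusted p by independent filtering, and the gene was called when that filtering was not used (adjusted p = 0.0278) and in edgeR (adjusted p = 0.0393). It was not called without tamoxifen replicate 2 (0.81, adjusted p = 0.183), without vehicle replicate 2 (adjusted p = 0.0776) or 3 (adjusted p = 0.0525), or when genes with an opposite-strand overlap were removed (adjusted p = 0.126). KRT5 was at 810, 841 and 934 with vehicle and 1085, 857 and 1045 with tamoxifen, which overlapped (log2 fold change 0.21, 95% interval -0.02 to 0.43, adjusted p = 0.296).

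**Figure D3:**
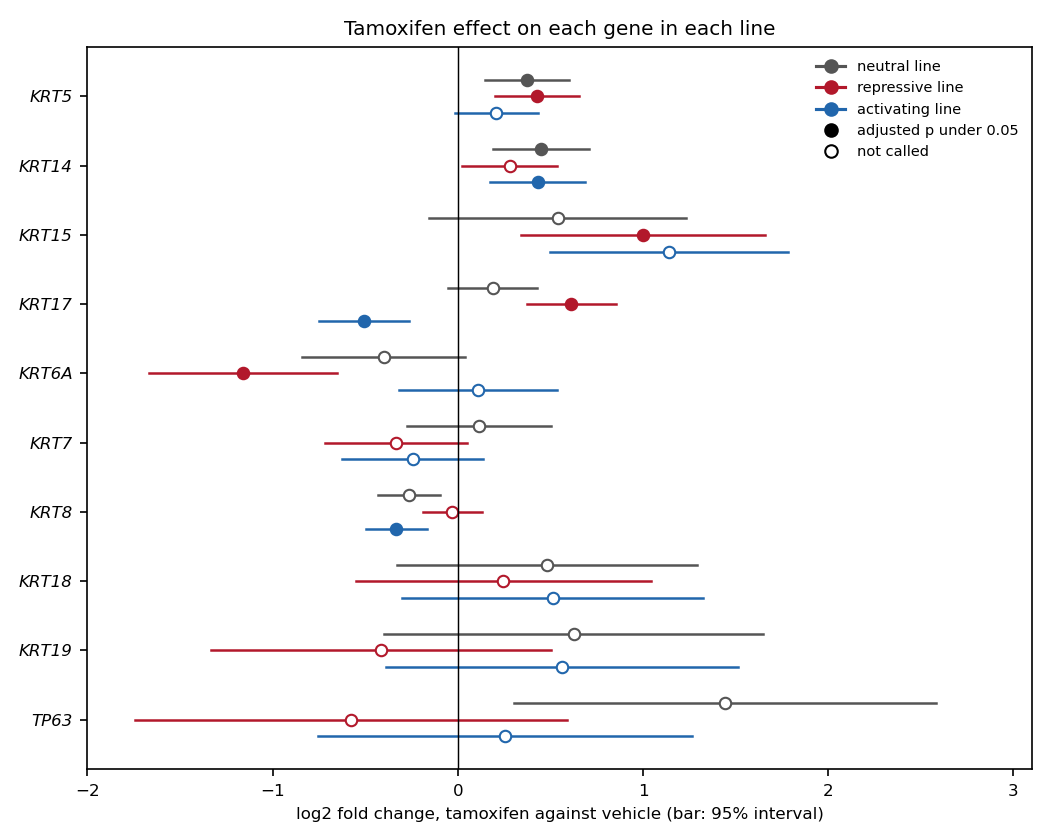
Log2 fold change of tamoxifen against vehicle (x axis) for the 10 genes (y axis) in the neutral (grey), repressive (red) and activating (blue) lines; bars are 95% intervals and filled points have a DESeq2 adjusted p under 0.05. KRT17 lies at 0.61 in the repressive line and at -0.51 in the activating line, and the 3 values of KRT5 and of KRT14 all lie above 0.

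Differences between the effectors were tested as interactions, that is, the tamoxifen effect of one line minus that of another. KRT17 was the gene of the set with a called difference in 2 of these 3 comparisons. Its effect in the activating line was lower than in the neutral line by 0.69 on the log2 scale (difference -0.69, SE 0.18, adjusted p = 0.00686). There 0.619% of all tested genes were called, and 1419 tested genes, among them 6 of the 10, got an adjusted p. The KRT17 effect in the activating line was lower than in the repressive line by more (-1.12, SE 0.18, adjusted p = 2.31e-08).

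KRT6A differed between the activating and the repressive line (difference 1.27, SE 0.34, adjusted p = 0.00483). These 2 genes of 10 were called in that comparison, against 4.25% of all tested genes. Total-count scaling moved the median of all genes by 0.152 there, and KRT17 (-0.97, adjusted p = 1.58e-05) and KRT6A (1.42, adjusted p = 0.00136) were called under it as well. Against the neutral line, the activating effect on KRT6A differed by 0.51 (95% interval -0.10 to 1.12).

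For the repressive effect minus the neutral effect, DESeq2 called 0 of the 10 genes, against 3.85% of all tested genes, and edgeR also called 0. At an unadjusted p under 0.05 there were 4: KRT17 (0.42, adjusted p = 0.126), KRT6A (-0.76, adjusted p = 0.176), KRT8 (0.23, adjusted p = 0.248) and TP63 (-2.02, SE 0.83, no adjusted p). Total-count scaling moved the median of all genes by -0.13 in this comparison. KRT17 was called there without replicate 1 of the neutral vehicle group (0.57, adjusted p = 0.0112) or without replicate 2 of the repressive vehicle group (0.53, adjusted p = 0.0472).

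KRT5 and KRT14 gave no called difference between lines. The difference of KRT5 was 0.05 (95% interval -0.27 to 0.37) for repressive minus neutral and -0.16 (-0.48 to 0.15) for activating minus neutral. For KRT14 these were -0.17 (-0.53 to 0.20) and -0.02 (-0.38 to 0.35). The 3 interactions share libraries, and each effect above is given from its own groups.

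Before induction, KRT8 was higher in the repressive line, at 786, 866 and 929 normalized counts with vehicle (860 ± 71.5), than in the neutral line (698 ± 39.5) or the activating line (699 ± 17.8). All 3 repressive libraries were above all 6 of the others. The log2 difference from the neutral line was 0.30 (SE 0.082, adjusted p = 0.0101) and that of the activating from the repressive line was -0.30 (SE 0.082, adjusted p = 0.0129). KRT8 was the only one of the 10 genes called in each, against 2.51% and 1.72% of all tested genes. The mesenchymal marker VIM moved with KRT8 in both comparisons (log2 difference 0.70, adjusted p = 0.0117, and -0.90, adjusted p = 4.80e-04), and FN1 was called in the second (-1.80, adjusted p = 0.0323). The first VIM call was lost without neutral vehicle replicate 2 or 3 or repressive vehicle replicate 1 or 2 (adjusted p up to 0.0902) and the FN1 call in edgeR (adjusted p = 0.0702) and without activating vehicle replicate 3 or repressive vehicle replicate 2 (adjusted p up to 0.204), and the part of these markers in the KRT8 values was not tested. For KRT8 the adjusted p in edgeR was 0.0898 and 0.0977, and without repressive vehicle replicate 3 it was 0.11 and 0.148. The first call was also lost without neutral vehicle replicate 2 (0.102), and the second without repressive vehicle replicate 2 (0.065) or activating vehicle replicate 3 (0.127).

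KRT19 with vehicle had 39.9, 26.1 and 23.9 normalized counts in the repressive line and 13.5, 14.4 and 3.94 in the neutral line. The groups did not overlap, and the log2 difference of 1.50 (SE 0.50) had an adjusted p of 0.0595. Between the activating and the neutral line with vehicle, DESeq2 and edgeR each called 0 of the 10 genes, against 0.808% of all tested genes in DESeq2. Only 517 tested genes, among them 4 of the 10, got an adjusted p from DESeq2 there. The 1 gene at an unadjusted p under 0.05 was TP63. It had 15.6, 15.4 and 15.4 normalized counts in the activating line (log2 difference 1.31, SE 0.58, no adjusted p).

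Over all 6 groups, 43 of the 50 pairs of groups that neighbour each other in the order of a gene's means had overlapping ranges. The 7 that did not belonged to KRT15, KRT17, KRT6A and KRT8. Such pairs were not counted for genes outside the set, so whether 7 is many or few cannot be told. KRT17 with tamoxifen in the repressive line was above, and in the activating line below, every other group, and KRT6A with tamoxifen in the repressive line was below every other group. KRT8 split into the repressive line, whichever the treatment, above the vehicle groups of the other lines, and these above their tamoxifen groups.

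The median log2 fold change of the 10 genes was 0.41 in the neutral, 0.11 in the repressive and 0.23 in the activating line, beside 0.005, -0.02 and -0.0003 for all tested genes. Summed normalized counts of KRT5, KRT14, KRT15, KRT17 and KRT6A were divided by those of KRT7, KRT8, KRT18 and KRT19 in each library, as a description. Each sum holds the genes' own rows, so the ratio does not give the balance of transcripts. The KRT7-AS row, which may hold reads of KRT7, was left out. Its group means were 1765 to 2334 normalized counts, against 711 to 1053 for the sum of KRT7, KRT8, KRT18 and KRT19. The ratio was 2.22, 2.61 and 2.98 with vehicle and 3.39, 3.67 and 3.83 with tamoxifen in the neutral line. It was 2.38, 2.05 and 1.64 against 3.23, 2.71 and 2.57 in the repressive line, and 2.54, 2.35 and 2.86 against 3.81, 2.99 and 3.24 in the activating line. Tamoxifen libraries were above vehicle libraries within each line, with the repressive line lowest in both treatments by its means (2.02 and 2.84).

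**Figure D4:**
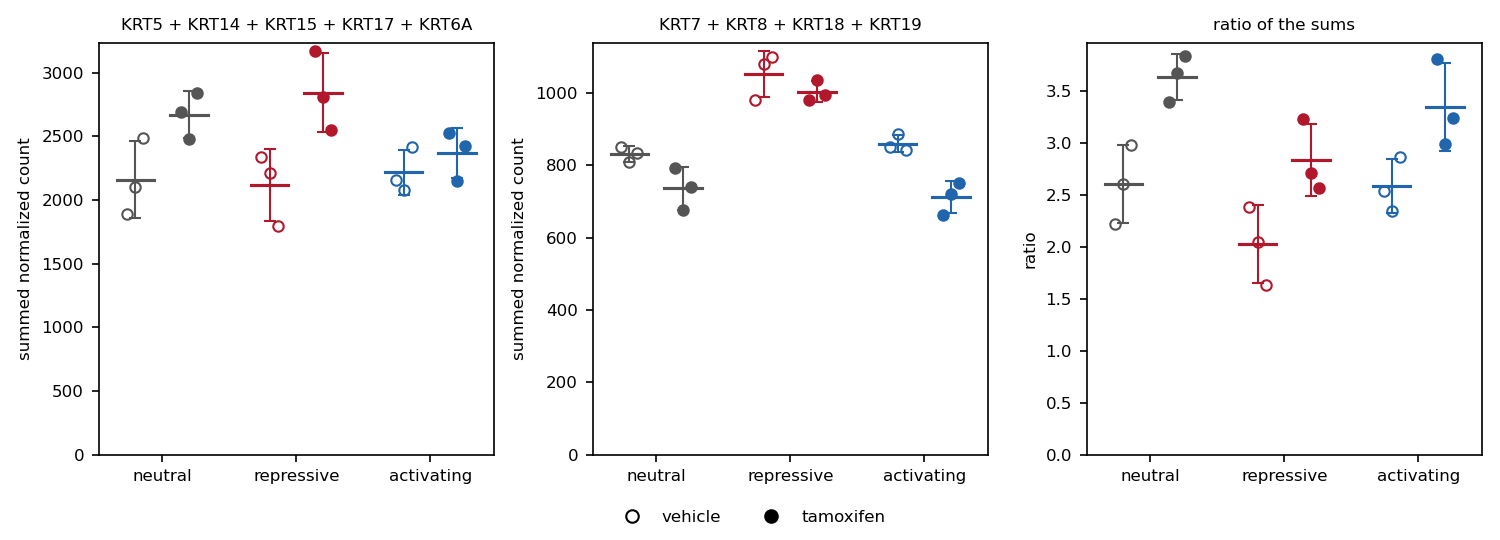
Summed normalized counts of the 5 basal and stress keratins (left), of the 4 simple keratins (middle) and their ratio (right) in the 3 lines (x axis), open points for vehicle and filled points for tamoxifen; each point is 1 library, bars are group means and whiskers 1 SD (n = 3). The ratio is higher with tamoxifen in each line, and the simple keratin sum is highest in the repressive line (means 1053 and 1004). The sums hold each gene's own row and leave out KRT7-AS.

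The rows opposite KRT7, KRT8 and KRT18 bear on what these genes' counts stand for. KRT7-AS had 1169 ± 123 normalized counts per exonic kilobase, against 29.2 ± 4.93 for KRT7. KRT121P, the other row opposite KRT7, had at most 4 counts in a library. KRT8 had 103 ± 18.1 and KRT18 7.70 ± 2.29 per exonic kilobase, and how many KRT8 counts came from KRT18 transcripts cannot be told apart here. KRT18 itself was at 13.5 to 34.7 normalized counts in the 18 libraries and was called in no comparison, and its 67 pseudogene rows added 805 counts to its own 437, most from KRT18P12, which lies opposite PTPN14.

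KRT7-AS (RP3-416H24.1) was called in comparisons in which KRT7 did not pass the test. With vehicle it had 2214, 2439 and 2348 normalized counts in the repressive line against 1773, 1779 and 1744 in the neutral line, a log2 difference of 0.40 (SE 0.068, adjusted p = 5.66e-07) with no overlap. It was also higher with vehicle in the activating than in the neutral line (0.22, SE 0.068, adjusted p = 0.0273), a call that held in 6 of 13 alternatives and was lost in edgeR (adjusted p = 0.38) and without any 1 neutral vehicle replicate or activating vehicle replicate 2 or 3 (adjusted p up to 0.726). In the repressive line it fell to 1981, 1779 and 2122 with tamoxifen (log2 fold change -0.25, SE 0.068, adjusted p = 0.00314; 0.0733 without tamoxifen replicate 2), and this effect differed from that in the neutral line by -0.37 (SE 0.096, adjusted p = 0.00362). For KRT7 the difference between the repressive and neutral line with vehicle was 0.44 (adjusted p = 0.234), the tamoxifen effect in the repressive line -0.33 (adjusted p = 0.314) and its difference from the neutral line -0.45 (adjusted p = 0.389).

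The other genes of the epithelial program were taken by list, and their calls stand beside the shares of all tested genes given above. Of 20 other keratins, 2 had enough counts to be tested, KRT16, a stress keratin of epidermis, and KRT13, a keratin of stratified mucosa, and neither was called for tamoxifen in any line by DESeq2. KRT13 got no adjusted p in that fit, and it was called in the repressive line in edgeR (log2 fold change 3.31, adjusted p = 0.0182). It was not among the genes kept as having no opposite-strand overlap. Of 12 genes of desmosomes and filament linkers, 7 were tested and PKP1, a desmosomal plaque protein, fell in the repressive line from 119 ± 32.2 to 81.3 ± 15.2 normalized counts (log2 fold change -0.55, SE 0.20, adjusted p = 0.0457), with overlapping groups. PKP1 was not called in edgeR (adjusted p = 0.0587) or without vehicle replicate 2 or 3 or tamoxifen replicate 2 or 3 (adjusted p up to 0.299).

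Of 13 genes of the p53 family and genes linked to p63, 9 were tested and SFN, which encodes the epithelial 14-3-3 sigma protein, rose in the repressive line. It had 138, 126 and 135 normalized counts with vehicle and 308, 218 and 197 with tamoxifen, without overlap (log2 fold change 0.86, SE 0.19, adjusted p = 1.32e-04). The effect in the activating line was lower by 0.93 (difference -0.93, SE 0.27, adjusted p = 0.0132), a call lost with total-count scaling (adjusted p = 0.0768) and without activating vehicle replicate 3, activating tamoxifen replicate 2 or repressive tamoxifen replicate 1 (adjusted p up to 0.0942). Of the 14 luminal genes in the table, 3 were tested and PSCA, whose row lies opposite JRK, was called in the repressive line, with 27, 35 and 29 counts with vehicle and 0 in each tamoxifen library, at least 8.78-fold lower by a limit of 3 counts per library. In the activating line PSCA went the other way, from 7, 8 and 9 counts with vehicle to 35, 43 and 35 with tamoxifen (log2 fold change 2.27, SE 0.47), without an adjusted p in DESeq2 and with 0.00148 in edgeR. The repressive effect on PSCA differed from the neutral (adjusted p = 1.92e-07) and the activating effect (adjusted p = 1.74e-10), and with vehicle PSCA was higher in the repressive than in the neutral line (1.65, adjusted p = 0.0141). VIM was the called gene among the markers of other cell types there, falling from 153 ± 20.9 to 103 ± 29.3 normalized counts (log2 fold change -0.56, SE 0.19, adjusted p = 0.0353). That call was lost in edgeR (adjusted p = 0.056) and without vehicle replicate 1 or 2 or tamoxifen replicate 1 or 2 (adjusted p up to 0.283). FN1, the other tested marker of that list, went the other way in the repressive line, from 20.56 ± 6.235 to 47.15 ± 11.31 normalized counts. It was not called in DESeq2 (log2 fold change 1.199, adjusted p = 0.0562). The part of VIM-expressing cells in the keratin values was not tested.

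Among 1456 genes with a mean of at least 50 normalized counts, those most like KRT5 over the 18 libraries, by Pearson's r of log2(normalized count + 1), were NDRG1 (0.739), NUMA1 (0.701, opposite ENSG00000251143) and IDI2-AS1 (0.691, opposite IDI1). For KRT14 they were USP24 (0.824), RUSC1-AS1 (0.771, opposite FDPS) and RP11-192H23.5 (0.768, opposite ALDOC). For KRT8 they were AC010327.2 (0.854, opposite ENSG00000276570), NUDT6 (0.838, opposite FGF2) and GBA2 (0.837, opposite CREB3). Within the set, KRT5 with KRT14 had the highest r (0.773) and KRT17 with KRT6A the lowest (-0.651). These are descriptions over libraries that share groups and size factors.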

How the data were processed

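RNA-seq libraries of RWPE1 cells were prepared with a stranded mRNA kit. The authors quantified them with the nf-core/rnaseq workflow (GRCh37, Salmon 1.9.0 per the submitters' processing notes) and deposited expected counts, that is, estimated reads per gene, not scaled for depth or length. Of the values, 1.1% were not whole, and all were rounded. The study's own tests used DESeq2 1.28.0.

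DESeq2 1.42.0 (R 4.3.3) was run here as 1 model of 6 group means over all 18 libraries. It used genes reaching 10 counts in 3 or more libraries, size factors by median of ratios, and Wald tests. Independent filtering was on, and a gene was called when its p, adjusted by Benjamini-Hochberg over the genes that this filtering kept, was under 0.05. Depending on the comparison, 517 to 4575 of the 5816 tested genes got an adjusted p. The shares of genes called are over all 5816, so they include genes that could not be called. Alternatives were edgeR 4.0.16 (quasi-likelihood, TMM), other scaling, filters and designs, leaving out each library and, added after the data were seen, summed paralog rows. Code was tested on simulated data. All 10 genes were named, and of the listed genes those called in a tamoxifen comparison; others were chosen after their values were seen. The genes and lists were chosen with earlier results of these data known. Exons came from GENCODE (GRCh37). By Ensembl identifier, 96.1% of genes matched. Tested genes held 97.6% of counts.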

Additional observations from a re-analysis of the deposited data

Results flagged for a closer look

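The effect of tamoxifen differed between lines by a test of the difference itself for KRT17 in the activating against the neutral line (log2 difference -0.69) and against the repressive line (-1.12). It also differed for KRT6A in the activating against the repressive line (1.27) and for RP3-416H24.1 (KRT7-AS), the row opposite KRT7, in the repressive against the neutral line (-0.37). KRT17 was called in 19 of 19 settings in both of its comparisons, KRT6A in 20 of 20 and RP3-416H24.1 in 19 of 19.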

How the results depend on the processing

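The number of the 10 genes called depended on the processing in most comparisons. For tamoxifen in the neutral line it was 2, and 0 with edgeR, 0 without independent filtering, 1 with the replicate block, 0 when genes with an opposite-strand overlap were removed, and 0 to 2 when 1 library was left out. For the repressive line it was 4, and 2 with total-count scaling and 2 to 5 without 1 library. For the activating line it was 3, and 0 without overlapping genes. That setting removes KRT17, KRT7, KRT8 and KRT18 by its construction, and it also gave 0 for the activating minus the neutral effect (from 1) and 1 for the activating minus the repressive effect (from 2). The repressive minus the neutral effect gave 0 to 1 without 1 library. For vehicle, the repressive against the neutral line gave 1, and 0 with edgeR, 0 with only the compared groups, 0 without overlapping genes, 2 with total-count scaling, 2 without the low-count filter and 0 to 1 without 1 library. The activating against the repressive line gave 1, and 0 with edgeR, 0 with only the compared groups, 0 without overlapping genes and 0 to 1 without 1 library. Beyond the removed rows, the cause was not tested. Of 491 values of single genes under an alternative (the 3 tamoxifen comparisons, and other comparisons where the gene was called), 428 kept their side of the threshold or moved by less than their SE, 39 lost and 14 gained a call, 10 moved by more, and 0 changed direction after a call. Outside these, KRT17 gained a call for the repressive minus the neutral effect in 2 alternatives, KRT19 for the repressive against the neutral line with vehicle in 2, and KRT8 for the activating minus the repressive effect without repressive vehicle replicate 3 (-0.36, adjusted p = 0.0464).

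KRT17 was called in all 13 settings run for its effect in the repressive line (log2 fold change 0.48 to 0.71) and in all 13 for the activating line (-0.56 to -0.45), and KRT6A in all 14 for the repressive line (-1.30 to -1.03). Replicate numbers did not pair the libraries: over 9 same-numbered pairs of a vehicle and a tamoxifen library of 1 line, the correlation of their deviations was -0.302 to 0.138, and 2 were over 0.1. With the replicate block, KRT5 lost its neutral call (adjusted p = 0.0708). TP63, KRT18, KRT19 and KRT15 had too few counts for an adjusted p in several comparisons.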

Other observations

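KRT13, a keratin of stratified mucosa that is none of the 10 genes, had 7, 1 and 1 counts with vehicle and 30, 26 and 26 with tamoxifen in the repressive line. Every tamoxifen library was above every vehicle library (log2 fold change 3.37, SE 0.87, unadjusted p = 1.15e-04), and DESeq2 gave it no adjusted p, against 0.00238 without independent filtering. KRT13 was not among the genes kept as having no opposite-strand overlap. Its row may hold reads of a gene opposite it, which was not tested. In the neutral line KRT13 had 1 count over the vehicle and 5 over the tamoxifen libraries, and in the activating line 6 and 3.

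FN1, a mesenchymal marker, had 21.8, 26.1 and 13.8 normalized counts with vehicle and 58.2, 47.6 and 35.6 with tamoxifen in the repressive line, against 1.01 to 12.5 in the other lines. The change with tamoxifen was not called in DESeq2 (adjusted p = 0.0562) and was called with only the compared groups in the fit (adjusted p = 0.0252).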
